A study of Mus musculus with 6 samples.

Results

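The comparison was between mutant T-cell progenitors that began the same culture from different stages, DN1 and DN2a. Its members were 21888 cells, 10294 in the ΔTE DN1 library and 11594 in the ΔTE DN2a library, of 60671 cells in all 6 libraries of the series. A cell was kept when its barcode held at least 200 genes, no more than 2000 UMIs (unique molecular identifiers, each standing for 1 captured RNA molecule) and no more than 30% of UMIs on mitochondrial genes. Both libraries came from C57BL/6 mice in which the distal timing enhancer of Bcl11b was deleted on both alleles (ΔTE), with a YFP reporter knocked into the end of both Bcl11b genes. The WT libraries, used here only for reference, carried the YFP on both alleles and an intact enhancer. Bone marrow progenitors enriched for CD117 were pooled from 6 to 8 mice of 2 to 4 months, male and female together, and grown on OP9-DL1, a mouse stromal line that presents the Notch ligand DLL1. DN1 cells (CD44+ CD25-) and DN2a cells (CD44+ CD25+, Bcl11b-YFP negative) were then sorted and put back on the stroma for 4 days before sequencing by sci-RNA-seq3, a method that labels the RNA of fixed cells in successive rounds of wells. By the study's methods, the culture medium held Flt3 ligand and IL-7, and cultures of this kind were also given IL-2, IL-15 and stem cell factor. Each start gave 1 library, split over 3 reverse-transcription wells. The wells are parts of 1 culture and not replicates, so no test of the starting stage was possible and no p-value is given. Intervals in parentheses after a level, a ratio or a share of cells are 95% intervals that cover counting error only. Cells of a library are not replicates of its start.

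DN1 cells are the most immature thymic progenitors and can still give rise to natural killer, innate lymphoid, myeloid and dendritic cells. Notch signals carry them into the DN2a stage, in which CD25 appears, and stem-cell factors such as PU.1 (Spi1) are then silenced step by step. Commitment to the T lineage follows when the transcription factor Bcl11b switches on, at the passage from DN2a to DN2b. The comparison asks how far the stage at which cells entered the last 4 days of culture showed in their RNA when the enhancer that sets the time of that switch was missing.

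Cells that started as DN2a held more RNA of T-lineage genes and less RNA of myeloid and stem-cell genes than cells that started as DN1. The levels below are in CPM, a gene's UMIs summed over the cells of a library or of a well and scaled to the total of that library or well, and a ratio is the DN2a level over the DN1 level on the log2 scale. Of 9272 genes with at least 100 UMIs over both libraries, 867 differed by at least 1.5-fold, 624 of them upward in the DN2a library and 243 downward. A gene was counted as higher or lower only when, beyond the 1.5-fold, all 3 wells of one library lay above all 3 wells of the other. By that rule 368 genes were higher (3.97% of those compared) and 218 were lower (2.35%). The median ratio over all compared genes was -0.01. Sums over cells do not separate a gene used by more cells from a gene used more strongly in each.

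**Figure D1:**
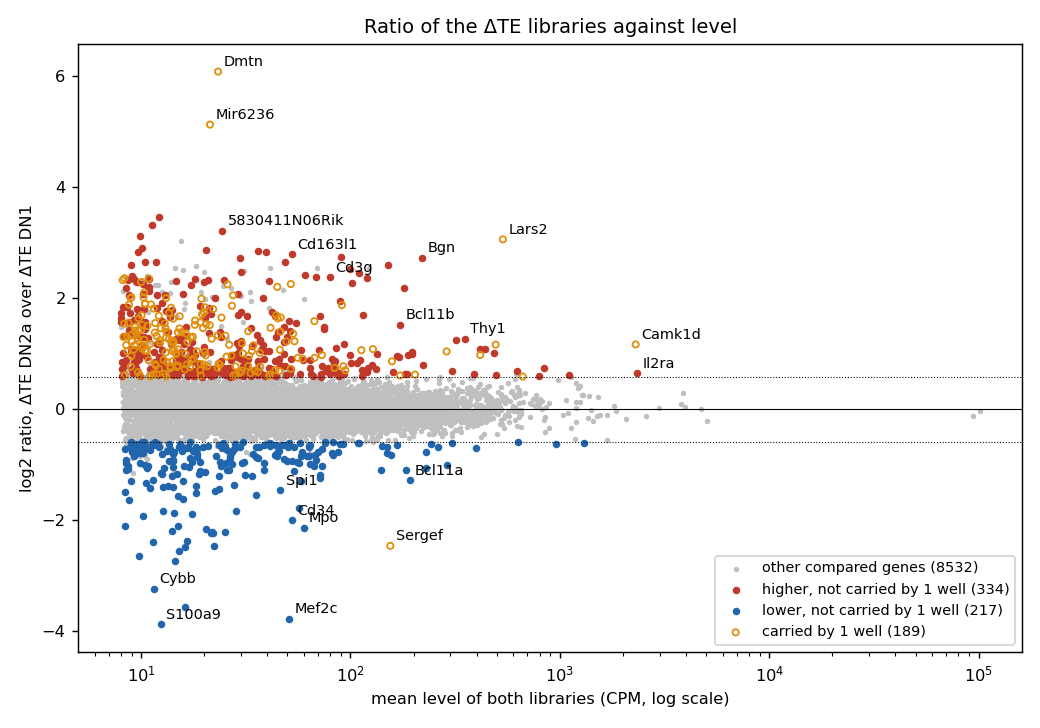
The log2 ratio of the ΔTE DN2a to the ΔTE DN1 library (vertical axis) against the mean CPM of both (horizontal log axis), 1 point for each of 9272 genes. Red and blue points are the 334 higher and 217 lower genes not carried by 1 well, and orange rings are the 189 genes that 1 well carried. Dotted lines mark 1.5-fold. Lars2 and Camk1d stand out at high level and belong to the rings.

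Well 2 of the DN2a library stood apart from the other 5 wells, and the counts of genes, and values that changed with it, are therefore also given without it. Its kept cells had a median of 390 UMIs and 16.6% mitochondrial UMIs, against medians of 471 to 511.5 UMIs and 22.4% to 24.6% in the other ΔTE wells. The limit on mitochondrial UMIs had removed 1.85% of its cells, 24.5% and 48.0% of the cells of wells 1 and 3, and 29.2% to 31.5% of the cells of the DN1 wells. Genes shorter than 10 kb had a median log2 ratio of 0.66 in well 2 over wells 1 and 3, and genes of 100 kb and over had -0.39, so the shift of the well ran with gene length. It also held the most cells with stroma genes. Of its cells thinned to 300 UMIs, 15.1% (13.8 to 16.4) had UMIs on at least 2 of 12 stroma genes, against 2.40% and 1.47% in wells 1 and 3 and 1.18% to 1.82% in the DN1 wells. Without well 2, 8841 genes were compared, 249 were higher (2.82%) and 284 were lower (3.21%). Of the 368 higher genes 206 were still counted without it, and of the 218 lower genes 158. The median ratio moved to -0.07. Among the leading genes, Cd3g (2.29), Cd247 (1.86), Lat (0.66), Lck (0.63), Lef1 (1.86), Ets1 (1.82), Dntt (2.37) and Thy1 (1.12) were still counted as higher without it, and Mef2c (-3.66), Spi1 (-1.42), Cd34 (-2.14) and Mpo (-2.24) as lower. No barcode was shared between libraries, and 4 sex-linked genes of the mixed pools, none of them counted, had summed levels of 200.4 and 211 CPM.

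The genes that make the pre-T-cell receptor complex and carry its signal were mostly higher. Of 13 genes on this list 10 had enough UMIs to compare, 8 were higher and none was lower, with a median ratio of 1.27. Without well 2 it was 7 of 9, since Cd3d then had under 100 UMIs. Their summed level was 699, 704 and 694 CPM in the DN1 wells and 1327, 1121 and 1312 CPM in the DN2a wells. Cd3g, a chain of the CD3 complex, was at 26.1, 19.4 and 32.4 CPM in the DN1 wells and at 129, 154 and 120 CPM in the DN2a wells. Its library level rose 5.20-fold, from 25.8 (21.9 to 30.2) to 134 (125 to 144) CPM. Cd3d, its neighbour on chromosome 9, was at 1.80, 3.15 and 3.98 CPM against 13.2, 15.0 and 16.0 CPM. Cd247, the zeta chain through which the receptor signals, was at 57.0, 55.6 and 47.2 CPM against 199, 126 and 186 CPM. All 3 chains lay higher in every DN2a well than in any DN1 well, as the rule for counted genes requires.

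The same held for the adaptors and kinases next to the receptor. Skap1, an adaptor that links the receptor to integrins, had a ratio of 1.95 (1.73 to 2.17), and Themis, a thymocyte selection adaptor, 1.48 (1.26 to 1.69). Lat and Lck, which pass the signal on, were higher by 1.77-fold and 1.58-fold. Fyn and Lcp2, which other blood cells use as well, had ratios of -0.15 and -0.06 and were not counted. In cells thinned to 300 UMIs, 5.14% (4.72 to 5.59) of DN2a-start cells had UMIs on at least 2 genes of the list, against 1.85% (1.59 to 2.15) of DN1-start cells. Thinned cells that carried at least 2 stroma genes should lack the receptor. Among them the share was 5 of 612 cells after the DN2a start (0.817%) and 1 of 134 after the DN1 start (0.746%). The interval of the DN1 share, 0.0189 to 4.09%, covers the 1.85% of all DN1-start cells.

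Bcl11b itself (GRCm38 chr12:107910403-108003602, minus strand), the factor whose enhancer was deleted, had UMIs after both starts. It was at 100.2, 84.9 and 80.7 CPM in the DN1 wells and at 284, 185 and 288 CPM in the DN2a wells. The DN2a wells were all higher, and well 2 was the lowest of them. The library level was 2.87-fold higher, 89.4 (81.9 to 97.4) against 257 (244 to 269) CPM, a log2 ratio of 1.52 (1.38 to 1.67), and the ratio was 1.67 without well 2. A Bcl11b UMI was found in 7.44% of thinned DN2a-start cells with fewer than 2 stroma genes and in 2.42% of such DN1-start cells. Among stroma-bearing cells it was found in 8 of 612 (1.31%, 0.566 to 2.56) and 1 of 134 (0.746%, 0.0189 to 4.09). The last interval covers 2.42%, so a share above that of stroma-bearing cells was not shown after the DN1 start. In the WT libraries the gene was at 235 CPM from the DN1 start and 535 CPM from the DN2a start, a ratio of 1.19 (1.10 to 1.27). The YFP-negative sort set Bcl11b low in the DN2a cells when the 4 days began.

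**Figure D2:**
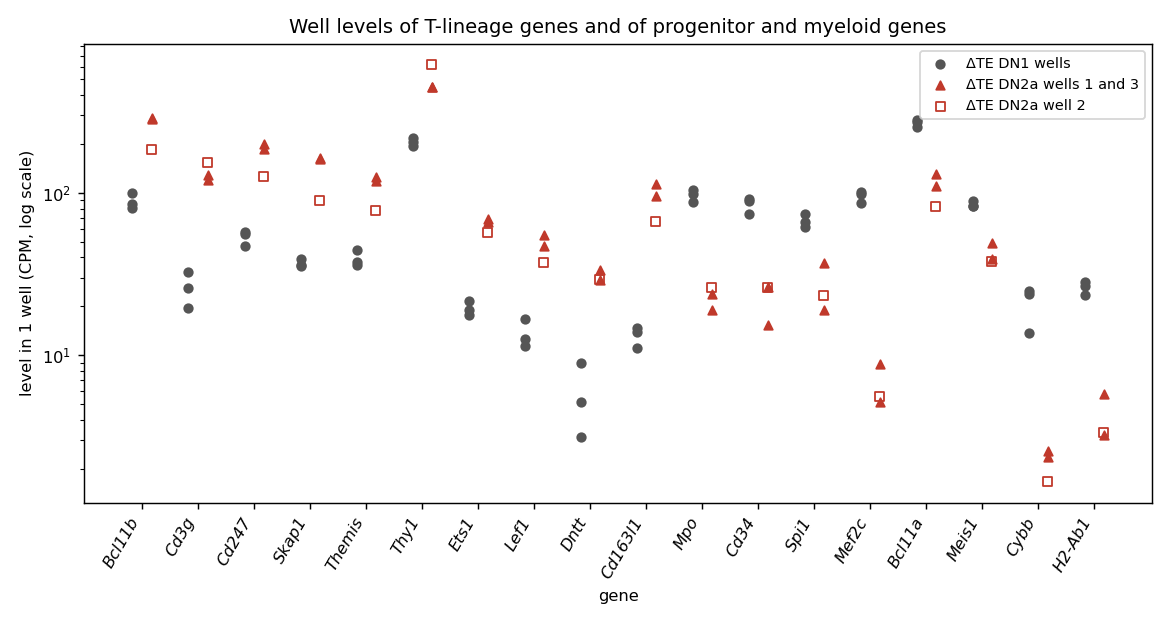
CPM in each well (vertical log axis) of 10 T-lineage genes (left) and 8 progenitor and myeloid genes (right). Grey points are the 3 ΔTE DN1 wells, red triangles wells 1 and 3 of the ΔTE DN2a library and open squares its well 2. The genes drawn were picked from those counted as higher or lower, so their wells do not overlap by the rule of counting. Bcl11b was at 80.7 to 100.2 against 185 to 288 CPM and Mef2c at 87.1 to 100.6 against 5.12 to 8.82 CPM.

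Other T-lineage transcription factors were split. Of 11 compared, 4 were higher and none lower. Besides Bcl11b these were Lef1, at 16.6, 12.6 and 11.4 CPM against 47.2, 37.1 and 55.1 CPM, Ets1, at 18.9, 21.5 and 17.6 CPM against 69.2, 57.0 and 66.6 CPM, and Gata3, with a ratio of 0.63 (0.51 to 0.76). Gata3, a factor needed from the earliest T-cell steps, was just under 1.5-fold without well 2, at 0.57. Tcf7, which encodes TCF1 and is induced by Notch before Bcl11b, had a ratio of 0.45 (0.37 to 0.53) and was not counted. It was at 341 to 363 CPM in the DN1 wells and at 418 to 538 CPM in the DN2a wells. Runx1, the most abundant of the list, was at 1140 and 1255 CPM and its wells overlapped, since well 2 was at 831 CPM.

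All 3 genes of receptor gene recombination were higher, with a median ratio of 2.18. Dntt, the polymerase that adds bases at the joins, was at 8.98, 3.15 and 5.11 CPM against 29.2, 29.3 and 33.3 CPM, a ratio of 2.35 (1.82 to 2.91). Rag1 and Rag2, which cut the receptor genes, had ratios of 2.18 (1.53 to 2.90) and 1.07 (0.57 to 1.59). Rag1 rested on 23 and 112 UMIs in all, and without well 2 it fell under the limit of 100 UMIs and was no longer compared with the rest, at a ratio of 2.11.

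Surface genes of early thymocytes gave 3 higher and 1 lower gene of 9 compared. Thy1, which marks T-lineage cells, was at 207, 195 and 217 CPM against 449, 615 and 446 CPM, and Cd28, a costimulatory receptor, rose 3.76-fold to 19.8 CPM. Il2ra encodes CD25, the protein by which the starting cells were sorted. After 4 days it was at 1796 to 1848 CPM in the DN1 wells and 2846 to 2867 CPM in the DN2a wells, 1.56-fold apart. Cd44, the other sorting marker, was the member that was lower, at 173 and 109 CPM. Kit, the receptor CD117, was at 235 and 209 CPM with a ratio of -0.17. Of 7 Notch pathway genes compared, the receptor Notch3 was higher (1.01) and Dtx1, a Notch target, was lower (-0.68, -0.97 to -0.40). Notch1 had a ratio of 0.52, under the 1.5-fold.

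Among genes that were counted without well 2 and were not carried by 1 well, the highest ratios came from genes known from gamma-delta T cells. Of 9 such genes on the list only Maf, Blk and Cd163l1 were found by name in the data, and all 3 were compared and higher. Cd163l1, a scavenger receptor also called SCART1, was at 13.9, 11.0 and 14.8 CPM against 95.3, 67.0 and 113 CPM, a 6.92-fold difference and a ratio of 2.79 (2.45 to 3.15). 5830411N06Rik, its neighbour on chromosome 7 and a gene of the same family, was at 5.39, 2.10 and 6.82 CPM against 53.6, 34.3 and 37.8 CPM, 9.30-fold. The kinase Blk had a ratio of 2.65 (1.90 to 3.47) from 17 and 114 UMIs, and Maf 1.68 (1.39 to 1.98). Constant-region genes of the gamma and delta receptor chains were not analysed here. Also among the leading genes without well 2, by a choice made after the values were seen, were the inhibitory receptor Pdcd1 at 13.7 and 67.8 CPM, Ly6d at 6.79 and 33.3 CPM, the peptide transporter Slc15a1 at 4.58 and 19.2 CPM, Olfm3 at 9.33 and 33.1 CPM and Adamtsl3 at 8.31 and 30.1 CPM.

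Genes of innate lymphoid cells moved less evenly. Of 9 transcription factors of innate lymphoid and natural killer cells 5 could be compared and 3 were higher. Rora, a factor of ILC2 cells, was at 14.8, 33.0 and 31.3 CPM against 81.8, 86.4 and 55.7 CPM, Nfil3, an early factor of the innate lineages, rose 1.91-fold and Ahr 1.59-fold. Id2, which innate lymphoid cells need, was at 42.7, 39.8 and 47.2 CPM against 58.7, 71.4 and 67.2 CPM. Its ratio of 0.58 was just under 1.5-fold. Without cells that held at least 2 genes of a list for another cell type, the ratio was 1.01 and Id2 was counted as higher. Zbtb16, which encodes PLZF and marks innate lymphoid precursors, was at 387, 407 and 381 CPM against 567, 302 and 543 CPM. Its DN2a well 2 lay below every DN1 well and the others above, and the ratio of 0.31 (0.23 to 0.39) became 0.51 without well 2. Among the 18 killer-cell genes only 6 could be compared. Gzma, a granzyme, was higher at 1.53-fold, a count lost without well 2 (0.46), and the signalling adaptor Tyrobp was lower at 1.73-fold. Gzmb and Nkg7 had ratios of 0.12 and 0.35. Of 11 ILC2 genes only 3 could be compared, and 2 were higher. Without well 2 it was 1 of 2, Il17rb. This gene was higher by 1.86-fold and Icos had 17 and 96 UMIs (ratio 2.40, 1.64 to 3.24), while Il1rl1, Il5 and Il13 had too few UMIs to compare. Among cytokine receptors Il18r1 (1.66, 1.13 to 2.21), Il7r (0.74, 0.58 to 0.89) and Il2ra were higher, and Il15ra, the receptor chain for interleukin 15, was lower (-1.20, -1.58 to -0.83).

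The lower genes were led by myeloid and stem-cell genes. Mef2c, a transcription factor of multipotent and myeloid progenitors, was at 87.1, 100.6 and 98.9 CPM in the DN1 wells and at 8.82, 5.54 and 5.12 CPM in the DN2a wells, 13.6-fold lower. Lmo2, a cofactor of stem-cell transcription complexes, was at 18.0, 14.7 and 17.6 CPM against 1.36, 4.98 and 2.56 CPM. Spi1, which encodes PU.1, was at 74.1, 61.3 and 66.5 CPM against 19.0, 23.3 and 37.1 CPM, a ratio of -1.45 (-1.73 to -1.18). In all, 7 of 12 stem and progenitor factors compared were lower and none was higher, and without well 2 the homeobox factor Hhex (-0.65) was lower as well. The others were Bcl11a (-1.27), Tal1 (-1.05), Meis1 (-0.98) and Gfi1b (-0.67). Erg and Lyl1, which belong to the same network, had ratios of 0.07 and 0.09, so the stem-cell factors did not fall as 1 block.

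Some surface receptors of multipotent progenitors were lower as well. Cd34 was at 74.1, 91.7 and 89.2 CPM against 15.3, 26.02 and 26.3 CPM, a 4.00-fold drop. Flt3, the receptor for the Flt3 ligand in the culture medium, was at 13.6 and 3.17 CPM, and Csf2rb, the shared beta chain of the GM-CSF, IL-3 and IL-5 receptors, at 22.6 and 9.18 CPM. These 3 of the 5 genes compared were counted as lower, which requires every DN2a well to be below the DN1 wells. The others, Kit (-0.17) and Ly6a (0.965, carried by DN2a well 2, and 0.22 without it), were not counted. Flt3 had only 80 and 20 UMIs and was not compared without well 2, which left 2 of 4.

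Granule and phagocyte genes were also lower after the DN2a start. Mpo, the myeloperoxidase of granulocyte-monocyte progenitors, was at 98.8, 104 and 88.1 CPM against 19.0, 26.02 and 23.7 CPM, and the protease Prtn3 at 27.8 and 5.38 CPM. Another protease of the same granules, Ctsg, was at 36.5 and 32.9 CPM with overlapping wells. S100a9, a neutrophil calcium-binding protein, was at 22.9, 19.4 and 27.8 CPM in the DN1 wells. In the DN2a wells it was at 0.679, 0 and 5.12 CPM, 14.7-fold lower over the library, where 3 counts in well 2 would be 1.66 CPM. Its partner S100a8 had 67 UMIs after the DN1 start and 1 after the DN2a start. Csf1r, the macrophage growth factor receptor, was at 29.9 and 2.53 CPM, and Cybb, a subunit of the phagocyte oxidase, at 20.9 and 2.22 CPM. Lyz2, Tgfbi, Cd300a, Sirpa and Ctss fell by 3.65-fold to 5.599-fold. The 4 genes of the antigen-presentation list that could be compared were all lower, H2-Ab1 at 25.96 and 4.43 CPM, H2-Aa at 35.5 and 7.60 CPM, H2-Eb1 at 23.1 and 5.07 CPM and Itgax at 20.5 and 7.76 CPM. Of the 9 compared genes of the monocyte list, 6 were lower and 2 higher, Ccr2 (0.59, 0.44 to 0.75) and Klf4 (0.66, 0.09 to 1.24, not counted without well 2 at 0.45). Afap1l1 was also among the 12 lowest genes, at 36.3 and 7.76 CPM.

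Few cells showed several of these genes, and fewer did so after the DN2a start. In thinned cells, 1.15% (0.946 to 1.39) of DN1-start cells had UMIs on at least 2 monocyte genes and 0.247% (0.160 to 0.364) of DN2a-start cells. For the antigen-presentation list the shares were 0.786% and 0.148%, for the granulocyte-monocyte list 0.291% and 0.0296% and for the neutrophil list 0.205% and 0.00988%. No thinned cell had 2 genes of the B-cell or erythroid lists after either start. At 300 UMIs per cell most transcripts are missed, and 1150 DN1-start and 936 DN2a-start cells had UMIs on exactly 1 erythroid gene. When every cell with UMIs on at least 2 genes of 1 of the other-cell lists was left out (5.84% of DN1-start and 7.50% of DN2a-start cells), Mef2c kept a ratio of -3.95, Cd34 -1.92, Spi1 -1.25, Bcl11a -1.18 and Mpo -1.82, while H2-Ab1 shrank from -2.55 to -0.97 and Lyz2 from -2.21 to -1.11. The lists named the genes by which cells were left out, so smaller ratios of list members follow from the choice. Bcl11b (1.56), Cd3g (2.42) and Cd163l1 (2.85) moved little.

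**Figure D3:**
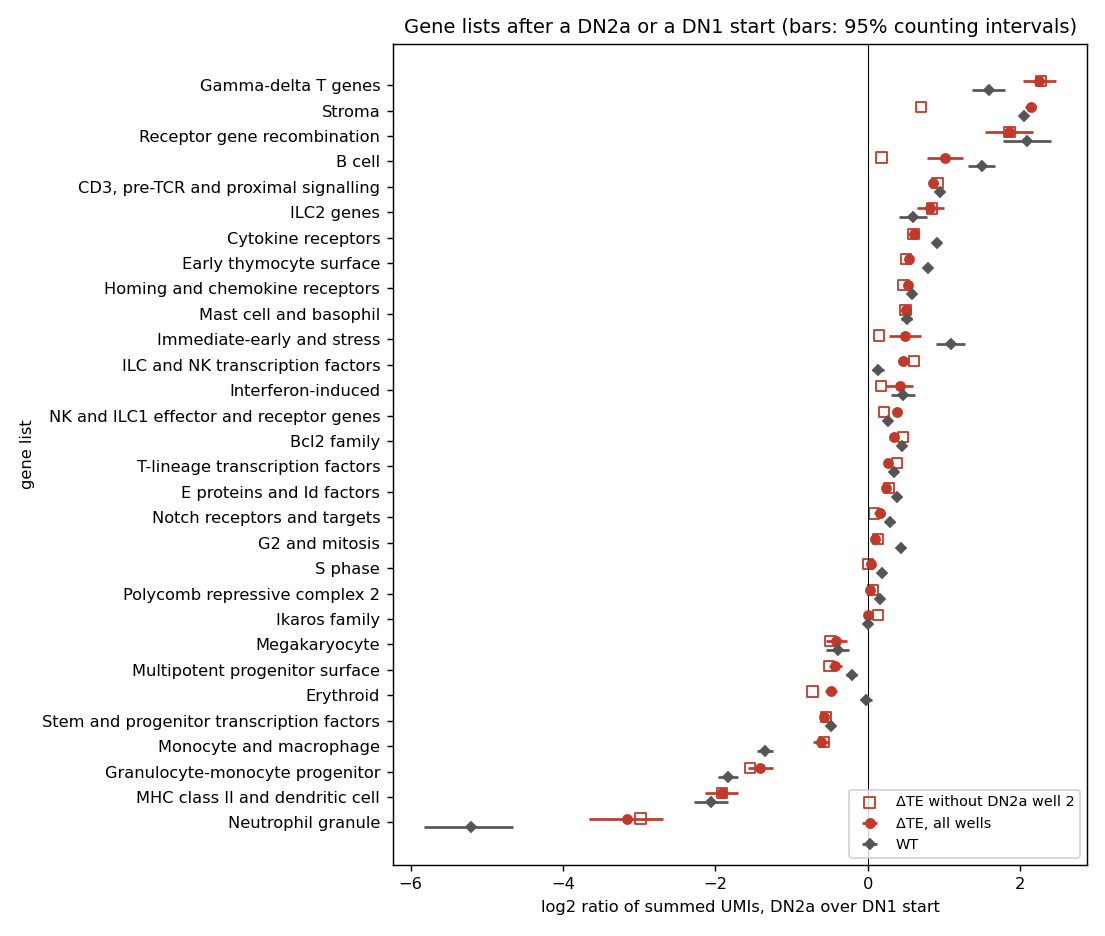
Log2 ratio of the summed UMIs of 30 gene lists, DN2a over DN1 start (horizontal axis). Red points are ΔTE with all wells, open red squares ΔTE without DN2a well 2 and grey diamonds WT, with bars for 95% counting intervals. The stroma list drops from 2.14 to 0.70 and the B-cell list from 1.02 to 0.18 without well 2, and the CD3 list stays at 0.86 and 0.92.

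Most genes of several other processes were not counted, as held for most of all compared genes, of which 3.97% were higher and 2.35% lower. At such shares, a count of 0 in a list of 20 or fewer genes says little about the list. Of 20 S-phase genes and 20 genes of G2 and mitosis, all compared, none was higher or lower, and their summed ratios were 0.05 (0.01 to 0.08) and 0.10 (0.07 to 0.12). Mki67, a proliferation marker, had a ratio of 0.15 and Top2a 0.14. Of 4 Ikaros-family genes, 6 E proteins and Id factors and 8 genes of Polycomb repressive complex 2 compared, none was counted, with summed ratios of 0.01, 0.24 and 0.03 over each whole list. Ikzf3, the Ikaros-family member Aiolos, had too few UMIs to compare, 4 against 43, and a ratio of 3.33 (1.87 to 5.27). Bcl2, the survival factor, was at 1071 and 1434 CPM with a ratio of 0.42, which reached 0.60 without well 2 and was then counted. Cpa3, a protease of mast cells that early progenitors also express, was at 501, 484 and 497 CPM against 710, 730 and 729 CPM. Its ratio of 0.54 was within 1.5-fold, and without the list-bearing cells it was counted as higher (0.59). Ribosomal protein genes had a summed ratio of 0.23 with well 2 and -0.04 without it, so their direction depended on that well. Mitochondrial genes likewise went from -0.07 to 0.04. The haemoglobin gene Hbb-bt, the only erythroid gene compared, was at 489 and 347 CPM and was counted as lower without well 2 (-0.74). With all cells no gene of the mast-cell, megakaryocyte or interferon lists was counted, with 2 genes compared in each, and without well 2 the platelet integrin Itga2b was lower (-0.59).

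The promoters of 4 leading genes are shown out of 6 that were read, those of Cybb and Mpo for the lower myeloid genes, that of Cd3d for the higher receptor genes and that of Bcl11b for the gene under the deleted enhancer. Each window runs from 250 bases before to 50 bases after the start of the gene in RefSeq (GRCm38.p6) and is written 5′ to 3′ on the strand of the gene. Capitals mark GAGGAA, the core bound by PU.1 and by other ETS factors, CTTTGA, the core of TCF1 and LEF1 sites, and TGTGGT, the core of Runx sites, on either strand. These motifs share no bases in the windows shown.
Cybb, chrX:9469275-9469574, minus strand: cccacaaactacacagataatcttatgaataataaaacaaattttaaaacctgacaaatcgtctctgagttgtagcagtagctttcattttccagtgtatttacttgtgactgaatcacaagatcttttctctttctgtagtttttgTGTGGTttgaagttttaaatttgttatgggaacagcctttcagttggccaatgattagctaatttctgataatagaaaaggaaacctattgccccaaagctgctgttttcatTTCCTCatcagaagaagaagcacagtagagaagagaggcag
Mpo, chr11:87793534-87793833, plus strand: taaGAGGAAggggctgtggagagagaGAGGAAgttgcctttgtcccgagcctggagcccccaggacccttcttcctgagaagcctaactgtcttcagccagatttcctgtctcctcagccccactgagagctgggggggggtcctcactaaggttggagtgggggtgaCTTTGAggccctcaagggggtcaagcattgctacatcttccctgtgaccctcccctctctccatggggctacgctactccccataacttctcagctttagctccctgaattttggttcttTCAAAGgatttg
Cd3d, chr9:44981536-44981835, plus strand: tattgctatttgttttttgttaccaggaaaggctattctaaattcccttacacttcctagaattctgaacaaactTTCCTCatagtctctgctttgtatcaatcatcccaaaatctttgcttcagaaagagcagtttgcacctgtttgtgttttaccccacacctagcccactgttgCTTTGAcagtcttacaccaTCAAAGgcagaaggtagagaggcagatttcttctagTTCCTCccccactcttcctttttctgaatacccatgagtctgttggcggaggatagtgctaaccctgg
Bcl11b, chr12:108003365-108003664, minus strand: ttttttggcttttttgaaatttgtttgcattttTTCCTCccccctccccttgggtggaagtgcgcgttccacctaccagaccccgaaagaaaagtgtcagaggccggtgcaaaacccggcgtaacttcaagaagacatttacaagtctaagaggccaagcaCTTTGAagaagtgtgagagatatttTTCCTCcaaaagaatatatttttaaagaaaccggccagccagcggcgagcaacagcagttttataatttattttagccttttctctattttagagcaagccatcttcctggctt

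The Cybb window held 1 GAGGAA and 1 TGTGGT, the Mpo and Cd3d windows 2 GAGGAA and 2 CTTTGA each and the Bcl11b window 2 GAGGAA and 1 CTTTGA. The windows of Cd3g and Dntt, also leading T-lineage genes, held 0 matches of any of the 3 motifs. The letters are common. Among 32851 windows for all genes in RefSeq, 28.3% held GAGGAA, 16.0% CTTTGA and 16.8% TGTGGT. By gene, counting a gene when any of its windows held the motif, GAGGAA was found in 45.8% of the 120 genes with a window that were lower with and without well 2, in 37.4% of the 155 higher genes and in 30.4% of 7423 compared genes. CTTTGA was found in 15.0%, 18.1% and 13.8% of the same sets, and TGTGGT in 17.5%, 19.4% and 14.5%. A match describes the letters and is not evidence that a factor binds there. The Cd3d window and that of Cd3g on the opposite strand lie 854 bases apart, and both genes were higher.

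Many of the highest ratios among counted genes went with high levels in well 2. Of the 12 highest counted genes not carried by 1 well, 10 were Efemp2, Nsg1, Sod3, Fabp4, Gas6, Ccn5, Hp, Ak1, Col6a1 and Bgn, with ratios of 2.73 to 3.46, and none of these genes is on the stroma list. Efemp2, a matrix protein with the highest of these ratios, was at 57.6 CPM in well 2, at 9.50 and 5.76 CPM in wells 1 and 3 and at 0.524 to 2.84 CPM in the DN1 wells, a ratio of 2.01 without well 2. Bgn, the matrix proteoglycan biglycan, was at 54.4, 49.8 and 69.9 CPM in the DN1 wells and at 120, 1060 and 85.8 CPM in the DN2a wells. Well 2 was far above every other well, and wells 1 and 3 were still above the DN1 wells, with a ratio of 0.91 without well 2. Col1a2, a collagen, was at 74.1, 48.7 and 69.9 CPM against 128, 745 and 85.8 CPM, and Cxcl12, a stromal chemokine, at 49.0, 31.97 and 47.2 CPM against 110, 676 and 59.6 CPM. The stroma list as a whole was at 337, 272 and 386 CPM against 618, 3757 and 387 CPM, so DN2a well 3 was level with DN1 well 3. Without the list-bearing cells its ratio was -0.06. The share of stroma-bearing cells given above was also highest in well 2, and its part in these ratios was not tested.

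Of the 867 genes past 1.5-fold, 189 (21.8%) were carried by 1 well. Such a gene had at least 20 UMIs in 1 well at a level at least 2-fold above both other wells of its library, and lost the 1.5-fold or its direction when that well was left out. DN2a well 2 carried 181 of them, DN2a well 1 carried 7 and DN1 well 1 carried 1. The rule for separate wells did not remove them all, since 34 of the 368 higher genes and 1 of the 218 lower genes were carried. In well 2 they included the iron-storage gene Fth1, at 541, 1402 and 589 CPM in the DN2a wells, Lgals1 at 404, 932 and 395 CPM, fibronectin (Fn1) at 64.1, 358 and 43.5 CPM and Ebf1 at 42.1, 150 and 19.2 CPM. Ebf1 is a B-lineage factor that marrow stroma also expresses. Id3, Ly6a, Bax and Acta2 were carried by the same well, so their ratios of 0.71 to 1.80 are not differences of the starts that other wells share. With the list-bearing cells left out, 13 genes were carried by 1 well.

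The genes of DN2a well 1 were of another kind, and for Camk1d and Lars2 most cells of the well held them. Camk1d, a calcium-dependent kinase, was at 1983, 1157 and 986 CPM in the DN1 wells and at 6007, 311 and 1180 CPM in the DN2a wells, where 91.0% of the cells of well 1 but 12.1% and 41.8% of wells 2 and 3 had a UMI. No cell of well 1 held more than 43 Camk1d UMIs. Without well 1 the ratio turned from 1.17 to -0.99. Lars2, a mitochondrial leucyl-tRNA synthetase, was at 1875 CPM in well 1, where 61.1% of cells had a UMI, and at 97.3 to 194 CPM in the other 5 wells. Its ratio was 3.06 with and 0.38 without the well. Gphn was at 1111 CPM there and at 275 to 335 CPM elsewhere. Dmtn, Mir6236 and Sergef are named after their values were seen. Dmtn and Mir6236 had 289 and 261 UMIs in well 1 and 5 and 8 in the other 5 wells together. In DN1 well 1, Sergef was at 597 CPM, with a UMI in 24.7% of cells, against 33.2 to 60.8 CPM in the other wells, and its ratio of -2.46 became -0.32 without the well. The cause of these well-specific signals was not tested.

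**Figure D4:**
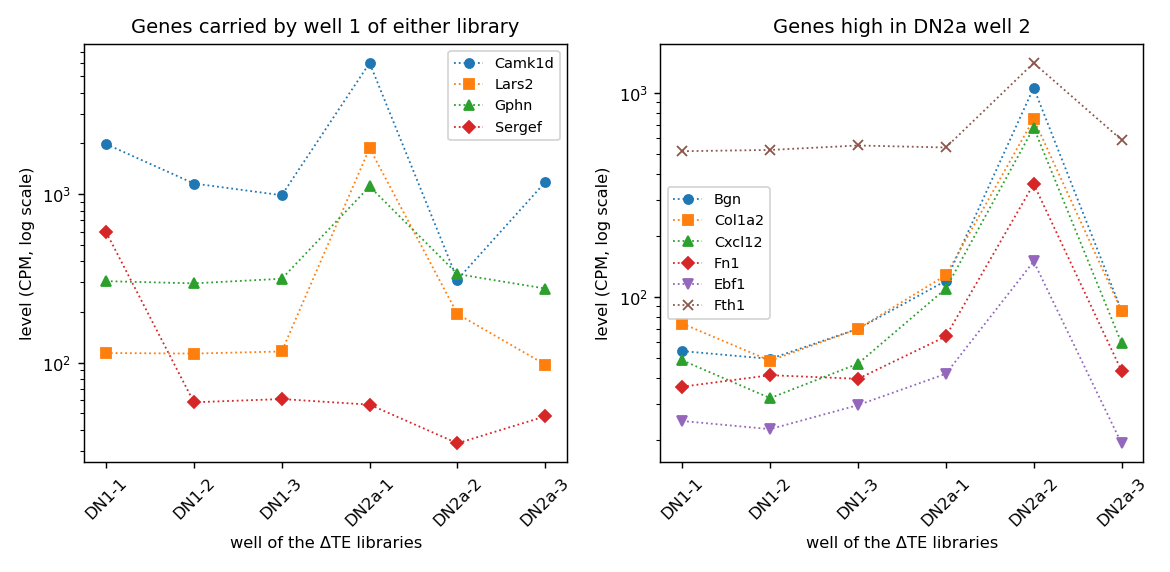
CPM (vertical log axis) in the 3 wells of the ΔTE DN1 and the 3 wells of the ΔTE DN2a library for 4 genes carried by well 1 of either library (left) and 6 genes high in DN2a well 2 (right). Dotted lines join the wells of a gene and carry no order. Camk1d, Lars2 and Gphn peak in DN2a well 1 at 6007, 1875 and 1111 CPM, Sergef in DN1 well 1 at 597 CPM and Bgn in DN2a well 2 at 1060 CPM.

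In the WT libraries, which share no cells with the mutant pair, most of the higher genes also passed 1.5-fold in the same direction. The lower genes did so less often. From the WT starts 9859 genes were compared, 1186 were higher after the DN2a start (12.0%) and 184 lower (1.87%), with a median ratio of 0.14. All 3 WT DN2a wells had low mitochondrial shares (12.8% to 14.2%) like well 2 of the mutant, and the WT stroma list also rose from 573 to 2384 CPM, so the WT and the full mutant ratios share these features. Among genes compared in both pairs, 289 of 356 genes higher in the mutant (81.2%) were also at least 1.5-fold higher in WT, where 10.1% of all 9246 such genes were. Without well 2 it was 191 of 242 (78.9%). Of the lower genes 112 of 216 (51.9%) were at least 1.5-fold lower in WT, against 1.90% of all, and without well 2 108 of 284 (38.0%).

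Some members differed in size between the genotypes, with 1 library for each start and no test of the difference. Cd34 had a ratio of -2.0015 (-2.29 to -1.72) in ΔTE and -0.77 (-0.94 to -0.60) in WT, Mef2c -3.77 (-4.25 to -3.33) and -2.69 (-2.94 to -2.44), and Afap1l1 -2.23 (-2.71 to -1.77) and -1.15 (-1.40 to -0.92). S100a9 had -3.88 (-4.97 to -2.95) and -7.29 (-9.58 to -5.73). Its DN2a levels were near the floor in both, so the sizes of these ratios are uncertain. In ΔTE, DN2a well 3 held most of its signal, and in WT the whole neutrophil list was at 2.99 CPM after the DN2a start. Among T-lineage genes Cd3g had 2.38 (2.13 to 2.64) and 1.97 (1.83 to 2.11), Il2ra 0.65 (0.61 to 0.68) and 1.03 (1.00 to 1.07). Dtx1 had -0.68 (-0.97 to -0.40) and -0.06 (-0.28 to 0.16). Zbtb16 had 0.31 (0.23 to 0.39) and -0.15 (-0.25 to -0.06), and the chemokine receptor Ccr2 0.59 (0.44 to 0.75) and -0.43 (-0.61 to -0.25), each with intervals on opposite sides of 0. For Zbtb16, ΔTE DN2a well 2 lay below every ΔTE DN1 well, the direction of WT. The WT DN2a wells were like well 2 in mitochondrial share, and the mitochondrial limit removed 2.59% of WT DN2a but 26.8% of ΔTE DN2a cells. Genotype and kind of well therefore cannot be told apart for Zbtb16 or for any other gene set against WT here. Ccr2 was higher in every ΔTE DN2a well than in any ΔTE DN1 well, as the rule for counted genes requires. Well 2 had the lowest of its DN2a levels, 120.7 CPM against 144.9 and 140.2 CPM.

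**Figure D5:**
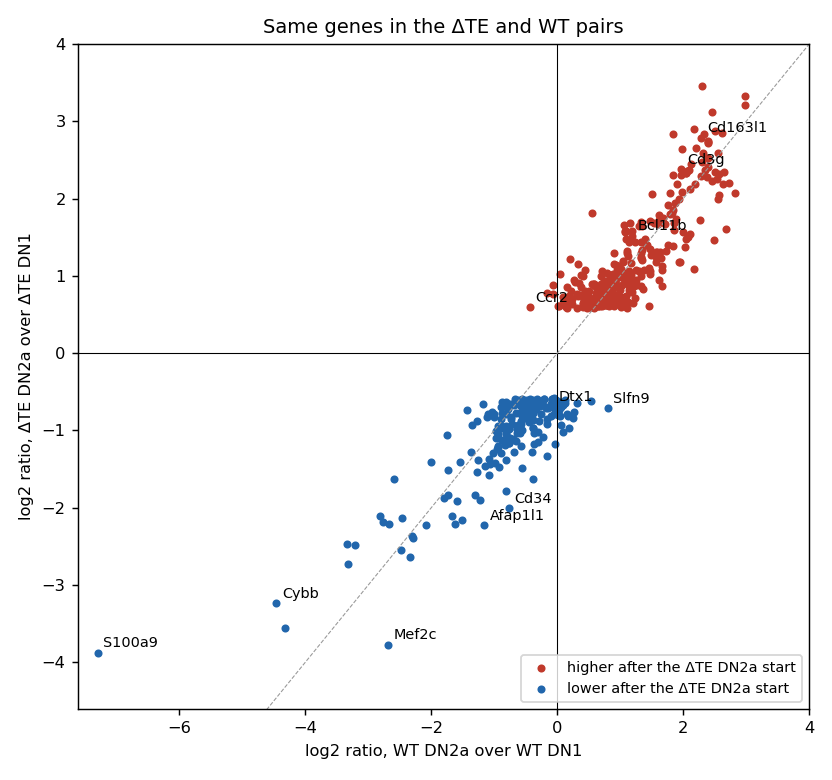
Log2 ratio of DN2a over DN1 start in ΔTE (vertical axis) against the same ratio in WT (horizontal axis) for genes counted in ΔTE and not carried by 1 well, with at least 100 UMIs in both pairs. Solid lines mark 0 and the dashed line equal ratios. S100a9 lies at -3.88 in ΔTE and -7.29 in WT, with DN2a levels near the floor in both. Slfn9 and Ccr2 are on opposite sides of 0.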

How the data were processed

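The deposited matrices give raw UMI counts per gene and cell barcode, made by the authors from sci-RNA-seq3 reads. The submitters' processing notes name the build mm9, and the aligner and counter are not given in the sources used here. Cells were filtered as stated above, and the filtered counts of 13599 genes found in at least 15 cells were summed per library and per reverse-transcription well (the third field of the barcode). The 2 ΔTE libraries held 5898630 and 6320441 UMIs after filtering. Ratio intervals are exact binomial intervals of the split of a gene's UMIs, at 95%, and levels have exact Poisson intervals. Intervals of shares are Clopper-Pearson. Scrublet (in scanpy 1.11.5) marked 0 cells as doublets and so did not work here. No other doublet step was taken. The counting steps were tested on simulated data. Named genes were the 12 highest and 12 lowest counted genes not carried by 1 well, Bcl11b, 3 genes with most UMIs and all counted genes of each list, and 5 carried genes. The comparison, the lists and the rules were chosen with earlier results of these data known. Gene positions were matched by Ensembl identifier to GENCODE M21 (GRCm38) and are not those of the authors' build. Whether reads were counted by strand is not stated, so overlapping genes may share counts. TMM factors came from edgeR 4.0.16. Because each condition was 1 library, no test, SE or p-value was made. Some genes that the rule names are not reported here.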

Additional observations from a re-analysis of the deposited data

Results flagged for a closer look

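Slfn9 was counted as lower after the ΔTE DN2a start and as higher after the WT DN2a start. This gene, a member of the Schlafen family on chromosome 11, was at 9.43, 12.1 and 9.66 CPM in the ΔTE DN1 wells and at 5.09, 8.30 and 6.403 CPM in the ΔTE DN2a wells, a log2 ratio of -0.71 (-1.32 to -0.11) from 61 and 40 UMIs. In WT it was at 8.01 CPM after the DN1 start and 13.9 CPM after the DN2a start, a ratio of 0.80 (0.31 to 1.31). The difference between the genotypes was not tested, since each start was 1 library in each. Genotype and kind of well cannot be told apart for this gene either. It was the only gene counted in opposite directions among the 9246 compared in both pairs, and without DN2a well 2 it fell under the limit of 100 UMIs. Utp14b was counted as lower in ΔTE (-0.62, -1.12 to -0.13) and had a ratio of 0.54 (0.09 to 1.00) in WT, where it was not counted.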

How the results depend on the processing

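No paired analysis was possible because each start was 1 library, whose wells are parts of 1 culture. The counts of higher, lower and carried genes were 368, 218 and 189. They kept within 1.5-fold under TMM factors, CPM outside mitochondrial genes, a median ratio set to 0, at least 300 genes per cell, the limit on genes in place of UMIs and without the 6% of cells with most UMIs. At least 300 UMIs gave 179, 103 and 62, no minimum 741, 499 and 364, and 2-fold 177 higher and 81 lower, all by construction. Carried genes were 311 at 50 UMIs, 67 at 20% mitochondrial UMIs and 48 with no such limit, and the cause was not tested. The genes changed too, as 145 of the 368 higher and 91 of the 218 lower genes were still counted at 20%, and 219 and 153 with no limit. Thinned cells gave 228 higher and 93 carried, with fewer UMIs. Leaving out list-bearing cells gave 13 carried, and leaving out DN2a well 2 as well, an alternative chosen after seeing the data, 231 higher and 11 carried. Leaving out each well in turn gave 249 to 514 higher, 194 to 284 lower and 18 to 315 carried, and the lowest higher and carried counts came without DN2a well 2, the highest carried count without DN2a well 1.

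Reversal was sought only in named genes counted as higher or lower. Of the 154 named genes compared, Fn1 reversed without list-bearing cells (-0.15) and also without well 2 (-0.38), and Bgn in the last setting (-0.10). Named genes that were not counted could also change sign, as Camk1d did without DN2a well 1 (-0.99) and Ebf1 without list-bearing cells (-0.95). Without list-bearing cells, then also without well 2, the monocyte list turned to 0.0675 and 0.0521, the B-cell list to -0.51 and -0.60 and the stroma list to -0.0576 and -0.13, genes by which those cells were chosen. Ribosomal protein genes ranged from -0.0434 (without DN2a well 2) to 0.4458 (without DN2a well 1) as wells were left out and were at -0.0622 in the joint setting, and mitochondrial genes to 0.0355, 0.0325 and, at 20% mitochondrial UMIs, 0.0002. Genes under 100 UMIs were not compared, and a missing count there says nothing about absence.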

Other observations

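Of 4 genes of the immediate-early list compared, 2 were higher after the DN2a start and none without DN2a well 2, and the summed ratio of the list went from 0.49 to 0.15. Egr1 was at 4.04, 4.72 and 5.11 CPM in the DN1 wells and at 12.2, 20.5 and 9.61 CPM in the DN2a wells, and Jun at 6.29, 6.29 and 5.68 CPM against 10.9, 21.6 and 6.403 CPM. Both were highest in DN2a well 2, and without it both had under 100 UMIs and were not compared, at ratios of 1.30 and 0.61. Nfkbia and Junb were not counted, at 0.40 and 0.04, and Fos had 11 and 6 UMIs. In the WT libraries the ratios were 2.67 for Egr1 and 1.66 for Jun. The chemokine receptor Cxcr5 was at 40.0 and 63.0 CPM, with a ratio of 0.65 that was 0.66 without DN2a well 2.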
